A study of Homo sapiens with 14 samples.

Results

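AMD1 encodes S-adenosylmethionine decarboxylase, and this account follows it with 9 other genes of polyamine metabolism through 14 RNA-seq libraries of CWR22RV1, a prostate cancer line of human origin. The genes were picked by symbol, or by NCBI gene number where a table had no symbols, and all 10 were found among the 27819 genes shared by the 4 deposited count tables. AMD1 was picked because it rose with P-SiaFNEtoc against the DMSO libraries of these data. Its values are therefore given as a description with no test, and the same holds for the P-SiaFNEtoc comparison, where counts past the threshold are printed beside the background but nothing is read from them. The test was read for the other 9 genes with the 3 fucosylation inhibitors, which share the same DMSO libraries.

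Treatment lasted 72 h, with DMSO as the vehicle (3 libraries), P-SiaFNEtoc at 2 μM (3), SGN-2FF at 100 μM (3), Fucotrim I at 30 μM (3) and Fucotrim II at 60 μM (2). The Fucotrims, built on rhamnose-1-phosphate, act on GMDS, through which cells convert GDP-mannose on the way to GDP-fucose. SGN-2FF is 2-fluorofucose, an inhibitor of fucosyltransferases, and P-SiaFNEtoc is an inhibitor of sialyltransferases with a carbamate at C-5. The doses differed between inhibitors, so values are set side by side and no inhibitor was tested against another. All libraries came from 1 cell line, and the study names 3 biological repeats per condition.

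Polyamines are small positively charged molecules that bind nucleic acids, and dividing cells and prostate epithelium make large amounts of them. ODC1 turns ornithine into putrescine, and AMD1 decarboxylates S-adenosylmethionine to supply the aminopropyl groups that SRM and SMS add to make spermidine and spermine. SAT1 acetylates polyamines, PAOX oxidises the acetylated forms, and SMOX oxidises spermine directly. The antizymes OAZ1 and OAZ2 bind ODC1 and send it to the proteasome, and AZIN1, a relative of ODC1 without enzyme activity, binds antizyme and keeps it from ODC1. Much of this control is known to act on translation and protein turnover, which counts of mRNA do not read.

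The sequences behind that control are shown first, because they mark what these counts leave out. The AMD1 leader carries a short upstream reading frame at chr6:110874796-110874816 (hg38, plus strand), whose peptide is known to stall ribosomes when polyamines are high. It starts at base 12 of the transcript, has 6 codons before its stop, and lies 289 bases before the main start. The start and stop codons are in capitals.
AMD1 upstream reading frame: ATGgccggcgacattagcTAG
Antizyme mRNAs need a shift of the ribosome by +1 base to be read through, a step that polyamines promote. The windows below span the end of the first reading frame in OAZ1 (chr19:2271428-2271457, plus strand) and OAZ2 (chr15:64691501-64691530, minus strand), with the stop codon at the shift in capitals.
OAZ1 frameshift window: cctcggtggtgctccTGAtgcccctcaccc
OAZ2 frameshift window: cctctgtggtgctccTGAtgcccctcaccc
The windows had 29 of 30 bases in common. A change in use of either site would not appear in counts of reads per gene.

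The promoters of AMD1 and ODC1 are shown because these enzymes, which supply the pathway together, differed from DMSO in opposite directions with the Fucotrims. RefSeq windows (GRCh38.p14), from 250 bases before to 50 after a start, were matched for 7 of the 10 genes, in 10 windows. Capitals mark CACGTG (an E-box), the letters TGACG (the front of a cyclic AMP response element) and the TATA box letters TATAA. Each was searched on both strands, a match on the other strand is shown as its reverse complement, and the marked matches do not overlap. AMD1 had 3 windows, none with an E-box and all with TGACG. The window printed lies at chr6:110874535-110874834 (plus strand) and holds TATAA, as does another shifted by 1 base; the window of an alternative start at chr6:110814367-110814666 holds no TATAA.
AMD1 promoter: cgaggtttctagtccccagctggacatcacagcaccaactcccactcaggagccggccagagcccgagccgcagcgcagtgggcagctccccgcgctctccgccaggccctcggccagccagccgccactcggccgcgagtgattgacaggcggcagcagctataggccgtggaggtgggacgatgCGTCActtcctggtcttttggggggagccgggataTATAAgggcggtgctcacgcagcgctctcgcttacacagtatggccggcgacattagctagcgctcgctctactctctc
The ODC1 windows lie at chr2:10448278-10448577 and chr2:10447963-10448262 (minus strand). The upstream window holds TATAA and TGACG, and the downstream window holds 2 E-boxes and TGACG.
ODC1 promoter, upstream start: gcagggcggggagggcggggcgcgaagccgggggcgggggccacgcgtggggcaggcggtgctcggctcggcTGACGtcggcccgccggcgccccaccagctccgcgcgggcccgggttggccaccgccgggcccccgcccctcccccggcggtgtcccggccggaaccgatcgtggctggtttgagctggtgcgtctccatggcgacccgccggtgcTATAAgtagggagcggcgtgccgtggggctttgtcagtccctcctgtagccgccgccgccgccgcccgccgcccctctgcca
ODC1 promoter, downstream start: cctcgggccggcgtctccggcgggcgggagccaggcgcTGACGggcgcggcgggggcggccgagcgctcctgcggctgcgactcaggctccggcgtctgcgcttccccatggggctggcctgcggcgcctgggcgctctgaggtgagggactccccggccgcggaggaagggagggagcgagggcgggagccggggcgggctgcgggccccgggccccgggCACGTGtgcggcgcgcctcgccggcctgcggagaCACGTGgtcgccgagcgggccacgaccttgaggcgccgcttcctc
Of 35116 promoters of the same length, 7.26% held CACGTG, 24.6% held TGACG and 20.4% held TATAA. In at least 1 window of the 7 matched genes, CACGTG was found in ODC1 and SRM, TGACG in 4 genes and TATAA in 3. A match of letters is a description of the sequence and says nothing about binding.

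The libraries held between 12553094 and 19981453 counts on genes. The prostate markers HOXB13, KLK3 and KRT8 were detected in every library, at 439 counts or more. Of the immune, endothelial and fibroblast markers, CD3E was at 0 throughout, CD68 had 64 to 128 counts, COL1A1 209 to 485, and the others at most 13. Mitochondrially encoded genes took 5.98% to 7.03% of counts in DMSO, 8.67% to 14.2% with Fucotrim I, 17.0% and 12.2% with Fucotrim II, 8.27% to 8.68% with SGN-2FF and 6.11% to 6.83% with P-SiaFNEtoc. This share moved with the Fucotrim and SGN-2FF results below. With those genes left out before scaling, OAZ1 with SGN-2FF was the only call among the 10 genes that changed, to an adjusted p of 0.0362. This setting alters only the scaling and the genes tested. Whether the mitochondrial share bears on the calls was not tested. Levels per library are CPM (counts scaled to a fixed library total) after a common TMM scaling of all 14 libraries, and fold changes come from edgeR's fit of each inhibitor with DMSO. In such bulk libraries, fewer cells that express a gene and less of its RNA per cell cannot be told apart.

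Divided by transcript length, the DMSO levels of the 10 genes ranged from 633 CPM per kb for OAZ1 to 1.26 for SMOX. ODC1 (158), AMD1 (131) and SRM (123) followed OAZ1, then AZIN1 (59.2), SMS (43.8), OAZ2 (40.8) and SAT1 (28.9). PAOX, at 3.29 CPM per kb, and SMOX were thus far below the synthesis enzymes. SMOX had 38 to 108 counts per library and PAOX 87 to 170, so their values carry the largest errors here.

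AMD1 (NCBI gene 262; chr6:110874770-110898879, hg38) was higher in every inhibitor library than in every DMSO library. Its level was 444, 453 and 449.5 CPM in DMSO. With Fucotrim I it was 637, 675 and 594 CPM, and with Fucotrim II 605 and 569.7 CPM. With SGN-2FF it was 524, 519 and 562 CPM, and with P-SiaFNEtoc 583, 585 and 542 CPM. The log2 fold change against DMSO was 0.50 ± 0.05 (SE) with Fucotrim I, 0.38 ± 0.06 with Fucotrim II, 0.27 ± 0.04 with SGN-2FF and 0.35 ± 0.04 with P-SiaFNEtoc, or 1.42-, 1.30-, 1.202- and 1.27-fold. From highest to lowest mean, the order was Fucotrim I (635 ± 40.8 CPM, SD, n = 3), Fucotrim II (587 ± 25.1, n = 2), P-SiaFNEtoc (570.2 ± 24.0, n = 3), SGN-2FF (535 ± 23.7, n = 3) and DMSO (449 ± 4.40, n = 3). Neighbours in this order overlapped in their libraries, apart from SGN-2FF and DMSO. The 3 DMSO libraries had the narrowest spread of the 5 groups.

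The change in AMD1 was moderate beside that of other genes. Ranked by log2 fold change from lowest to highest among all genes tested, AMD1 stood at percentile 89.8 with Fucotrim I, 76.0 with Fucotrim II, 86.8 with SGN-2FF and 93.2 with P-SiaFNEtoc. Across all alternatives, leaving out a library included, its log2 fold change was 0.46 to 0.56 with Fucotrim I, 0.34 to 0.42 with Fucotrim II, 0.23 to 0.29 with SGN-2FF and 0.33 to 0.38 with P-SiaFNEtoc. No other annotated gene shares its exon bases or any of its 100-base windows.

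**Figure D1:**
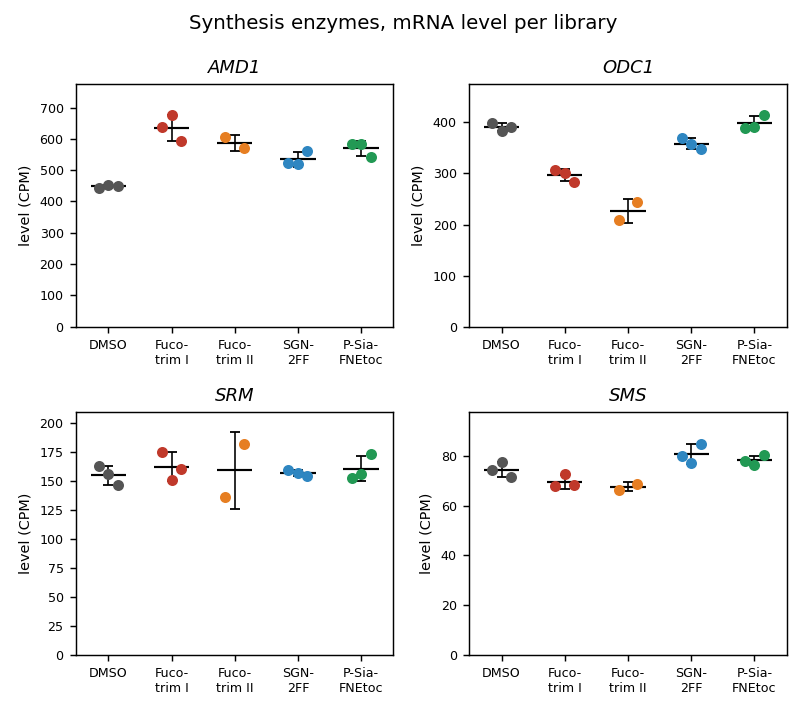
Level (CPM, linear axis from 0) of AMD1, ODC1, SRM and SMS in each library; points are libraries, long bars the group mean and error bars the SD (n = 3, Fucotrim II n = 2). All AMD1 points of the inhibitors lie above the DMSO points (444 to 453 CPM), ODC1 is lowest with Fucotrim II, and the SRM libraries of Fucotrim II lie apart at 136 and 182 CPM.

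ODC1 (NCBI gene 4953; chr2:10439968-10448327), the other rate-limiting decarboxylase of the pathway, was lower with all 3 fucosylation inhibitors. In DMSO it was at 399, 383 and 391 CPM. Fucotrim I gave 306, 301 and 283 CPM and Fucotrim II 209.7 and 243 CPM, with every library below DMSO. SGN-2FF gave 369.9, 357 and 349 CPM, closer to DMSO but again without overlap. The log2 fold change was -0.39 ± 0.05 with Fucotrim I (adjusted p = 1.55e-06), -0.79 ± 0.07 with Fucotrim II (adjusted p = 4.14e-05) and -0.11 ± 0.04 with SGN-2FF (adjusted p = 0.0247). The fall with SGN-2FF lost its call without DMSO replicate 1, without DMSO replicate 3, without SGN-2FF replicate 2 or without SGN-2FF replicate 3 (adjusted p up to 0.107), and in a fit of all 14 libraries (0.134). With P-SiaFNEtoc ODC1 was at 389.7, 391.6 and 414 CPM, within the range of DMSO for 2 of the 3 libraries, and its log2 fold change was 0.03 ± 0.04. In the order of levels, P-SiaFNEtoc and DMSO overlapped, and SGN-2FF, Fucotrim I and Fucotrim II followed below them without overlap.

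Since AMD1 was higher and ODC1 lower with the fucosylation inhibitors, the balance between their mRNAs moved. The log2 ratio of AMD1 to ODC1 was 0.20 ± 0.04 in DMSO (SD, n = 3). It was 1.10 ± 0.06 with Fucotrim I, 1.38 ± 0.21 with Fucotrim II, 0.58 ± 0.10 with SGN-2FF and 0.52 ± 0.11 with P-SiaFNEtoc. The DMSO libraries ended at 0.24 and the lowest inhibitor library, of P-SiaFNEtoc, was at 0.39. With P-SiaFNEtoc the difference from DMSO of 0.32 came with ODC1 near its DMSO level, and the ratio is a description, since it holds AMD1.

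**Figure D2:**
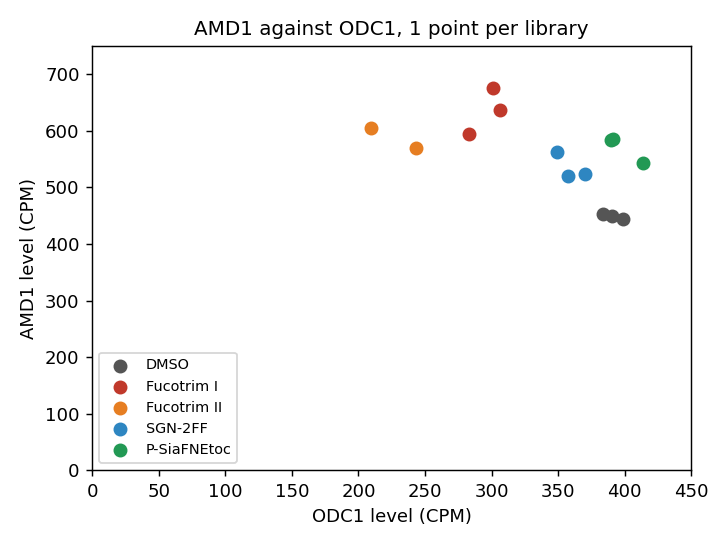
Level of AMD1 (y axis, CPM) against ODC1 (x axis, CPM) with 1 point per library, coloured by group; both axes are linear from 0. The P-SiaFNEtoc points stand above the DMSO points at a like ODC1 level, and those of Fucotrim I and Fucotrim II lie higher and to the left.

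SRM and SMS, the aminopropyltransferases that use the product of AMD1, made no call with any fucosylation inhibitor when all libraries were used. SRM was at 163, 156 and 146 CPM in DMSO, 175, 151 and 160.4 CPM with Fucotrim I, and 159, 157 and 154 CPM with SGN-2FF. The Fucotrim II libraries were at 136 and 182 CPM, on either side of DMSO. The sign of the SRM change turned with the Fucotrim II library left out (log2 -0.20 without replicate 2, 0.23 without replicate 1). Each of these fits left a single Fucotrim II library. The log2 fold changes of SRM were 0.07 ± 0.06 with Fucotrim I (adjusted p = 0.362), 0.03 ± 0.11 with Fucotrim II (adjusted p = 0.833) and 0.03 ± 0.04 with SGN-2FF (adjusted p = 0.717). With P-SiaFNEtoc it was 0.05 ± 0.05, and the libraries were at 153, 156 and 173 CPM.

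SMS was at 74.4, 77.6 and 71.8 CPM in DMSO. It was at 67.8, 72.8 and 68.3 CPM with Fucotrim I and at 66.5 and 69.0 CPM with Fucotrim II, and its log2 fold changes were -0.10 ± 0.06 (adjusted p = 0.191) and -0.14 ± 0.07 (adjusted p = 0.0966). With SGN-2FF it was at 79.99, 77.3 and 85.1 CPM (log2 0.12 ± 0.05, adjusted p = 0.0849), and with P-SiaFNEtoc at 77.9, 76.5 and 80.4 CPM (0.07 ± 0.05). The means with the Fucotrims were thus under that of DMSO and the other means over it, with no difference past the threshold when all libraries were used. Without Fucotrim II replicate 2, which left a single library, the SMS value with Fucotrim II was -0.18. Without DMSO replicate 2 the SMS value with SGN-2FF was 0.15 (adjusted p = 0.0483).

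Of the genes that control ODC1 protein, AZIN1 fell with all 3 fucosylation inhibitors. AZIN1 was at 245, 251 and 250.1 CPM in DMSO. It was at 218, 209 and 194 CPM with Fucotrim I, at 173 and 174 CPM with Fucotrim II, and at 216, 217 and 220.0 CPM with SGN-2FF. No library of these inhibitors reached the DMSO range. The log2 fold change was -0.26 ± 0.05 (adjusted p = 0.000347), -0.52 ± 0.06 (adjusted p = 0.000108) and -0.18 ± 0.04 (adjusted p = 0.000932). Each of these calls held at the threshold of 0.05 under every alternative that left more than 1 library in each group. With P-SiaFNEtoc the libraries were at 234, 227 and 219.7 CPM, below DMSO as well, with a log2 fold change of -0.13 ± 0.04.

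OAZ1, the most abundant of the 10 mRNAs, was at 749, 694 and 736 CPM in DMSO and at 682, 618 and 621 CPM with Fucotrim I. Its fall with Fucotrim I was small (log2 -0.18 ± 0.05, adjusted p = 0.00698) and missed the threshold without Fucotrim I replicate 3 (adjusted p = 0.0513). The Fucotrim II libraries differed from each other, at 582 and 714 CPM, and the log2 fold change of -0.17 ± 0.09 had an adjusted p of 0.131. Without Fucotrim II replicate 2 it was -0.33, and without replicate 1 it was -0.03, each with a single Fucotrim II library left. With SGN-2FF OAZ1 was at 688, 685 and 645 CPM (log2 -0.10 ± 0.04, adjusted p = 0.0519), and 4 alternatives brought it past the threshold, without DMSO replicate 2 among them (-0.13, adjusted p = 0.00996). With P-SiaFNEtoc it was at 732, 748 and 795 CPM (0.07 ± 0.04). JSRP1 covers 6.87% of the OAZ1 exon bases on the opposite strand, and the strand setting of the counting is not given in the sources used here.

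OAZ2 made no call when all libraries were used. It was at 80.8, 78.6 and 77.4 CPM in DMSO and at 72.6, 71.7 and 75.4 CPM with Fucotrim I, below DMSO in every library (log2 -0.11 ± 0.06, adjusted p = 0.126). The Fucotrim II libraries were at 76.6 and 91.9 CPM (0.09 ± 0.08, adjusted p = 0.391), again apart, as for SRM and OAZ1. Leaving out Fucotrim II replicate 1 gave 0.21, and leaving out replicate 2 gave -0.06, each with a single Fucotrim II library left. With SGN-2FF OAZ2 was at 78.8, 79.5 and 74.5 CPM (-0.01 ± 0.05, adjusted p = 0.876), and with P-SiaFNEtoc at 82.5, 82.9 and 83.6 CPM (0.07 ± 0.05).

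Of the catabolic genes, SAT1 rose with Fucotrim II and made no call with Fucotrim I or SGN-2FF. SAT1 was at 31.2, 29.8 and 29.95 CPM in DMSO and at 44.1 and 42.3 CPM with Fucotrim II (log2 0.50 ± 0.07, adjusted p = 0.000461, or 1.42-fold). The rise was between 0.47 and 0.53 in all 15 alternatives, and kept its call in those with both Fucotrim II libraries. With Fucotrim I SAT1 was at 26.7, 29.2 and 25.3 CPM, below every DMSO library (log2 -0.16 ± 0.08, adjusted p = 0.0965). Without Fucotrim I replicate 2 that value was -0.22, with an adjusted p of 0.0312. With SGN-2FF it was at 31.0, 25.97 and 28.2 CPM (-0.09 ± 0.07, adjusted p = 0.384), and with P-SiaFNEtoc at 28.7, 28.6 and 29.4 CPM (-0.07 ± 0.06). The difference between Fucotrim I and Fucotrim II was not tested, since their doses differed.

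SMOX (chr20:4120980-4187747), the spermine oxidase, was the gene with the largest log2 fold changes of the 10, and also the least abundant. It was at 3.02, 2.11 and 3.07 CPM in DMSO. It rose to 4.80, 5.74 and 4.44 CPM with Fucotrim I (log2 0.88 ± 0.19, adjusted p = 0.00072) and to 5.23 and 6.11 CPM with Fucotrim II (1.05 ± 0.20, adjusted p = 0.00189). The Fucotrim I call held without any one library, and the Fucotrim II call without any one DMSO library. With SGN-2FF it was at 3.41, 5.17 and 3.27 CPM, 1 library well above the others. The log2 fold change of 0.57 ± 0.20 (adjusted p = 0.0455) became 0.30 (adjusted p = 0.42) without SGN-2FF replicate 2, 0.41 (0.167) without DMSO replicate 2 and 0.65 (0.0594) without DMSO replicate 3. DESeq2 gave an adjusted p of 0.145 and limma-voom 0.0637. P-SiaFNEtoc gave 3.90, 3.66 and 4.28 CPM and a log2 fold change of 0.53 ± 0.18, or 0.38 without DMSO replicate 2.

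PAOX rose with Fucotrim I, and with Fucotrim II less securely. It was at 5.66, 6.95 and 5.45 CPM in DMSO, 10.9, 9.05 and 8.37 CPM with Fucotrim I (log2 0.65 ± 0.14, adjusted p = 0.000695), and 7.88 and 9.61 CPM with Fucotrim II (0.53 ± 0.16, adjusted p = 0.0173). The Fucotrim II call was lost without DMSO replicate 1 or DMSO replicate 3 (adjusted p of 0.0712 and 0.0758). With a library left out, the log2 fold change with Fucotrim II was 0.37 to 0.67. With SGN-2FF it was at 6.59, 7.96 and 7.37 CPM (0.29 ± 0.13, adjusted p = 0.116; without DMSO replicate 2, 0.41 and 0.0382), and with P-SiaFNEtoc at 7.94, 7.25 and 6.11 CPM (0.25 ± 0.13). Another annotated gene, ENSG00000254536, covers 61% of the PAOX exon bases on the same strand and holds 52% of its 100-base windows, so the PAOX counts are uncertain.

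**Figure D3:**
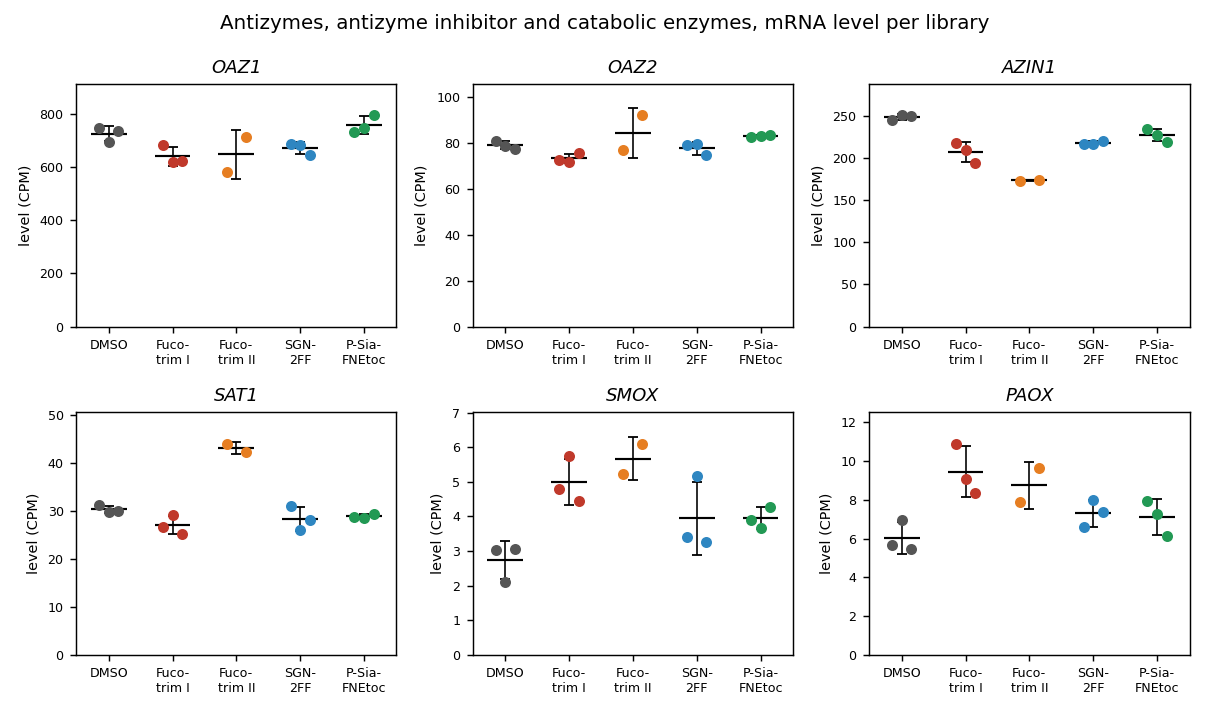
Level (CPM, linear axes from 0) of the antizymes OAZ1 and OAZ2, the antizyme inhibitor AZIN1, and the catabolic genes SAT1, SMOX and PAOX in each library; points are libraries, long bars the mean and error bars the SD. AZIN1 lies below DMSO with every inhibitor, SAT1 is raised with Fucotrim II (44.1 and 42.3 CPM), and 1 SGN-2FF library stands high for SMOX at 5.17 CPM.

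Counted over the 9 genes other than AMD1, 5 passed the test with Fucotrim I (SMOX and PAOX higher, ODC1, OAZ1 and AZIN1 lower). With Fucotrim II 5 passed (SAT1, SMOX and PAOX higher, ODC1 and AZIN1 lower), and with SGN-2FF 3 (SMOX higher, ODC1 and AZIN1 lower). The share of all genes tested that passed was 43.8% for Fucotrim I, 51.4% for Fucotrim II and 20.6% for SGN-2FF, so the counts are near the background for the Fucotrims, and 3 of 9 with SGN-2FF includes the unsteady ODC1 and SMOX calls. ODC1, SMOX and AZIN1 were called with all 3 fucosylation inhibitors, and SRM, SMS and OAZ2 with none. The share of all genes called with all 3 or with none was not counted, and the comparisons share their DMSO libraries. Nothing is therefore read from how often these calls recurred. With P-SiaFNEtoc, where 16.3% of genes were called and nothing is read from the count, 2 of the 9 were past the threshold. All 10 genes passed the filter on low counts in every comparison. With AMD1 left out, the libraries of inhibitor and DMSO did not overlap for 7 of the 9 genes with Fucotrim I, on the scale of each comparison. It was 6 with Fucotrim II, 5 with SGN-2FF and 4 with P-SiaFNEtoc. As the DMSO libraries are shared, nothing is read from these counts. Over all genes tested the share without overlap was 52.6%, 67.7%, 36% and 33.7%.

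**Figure D4:**
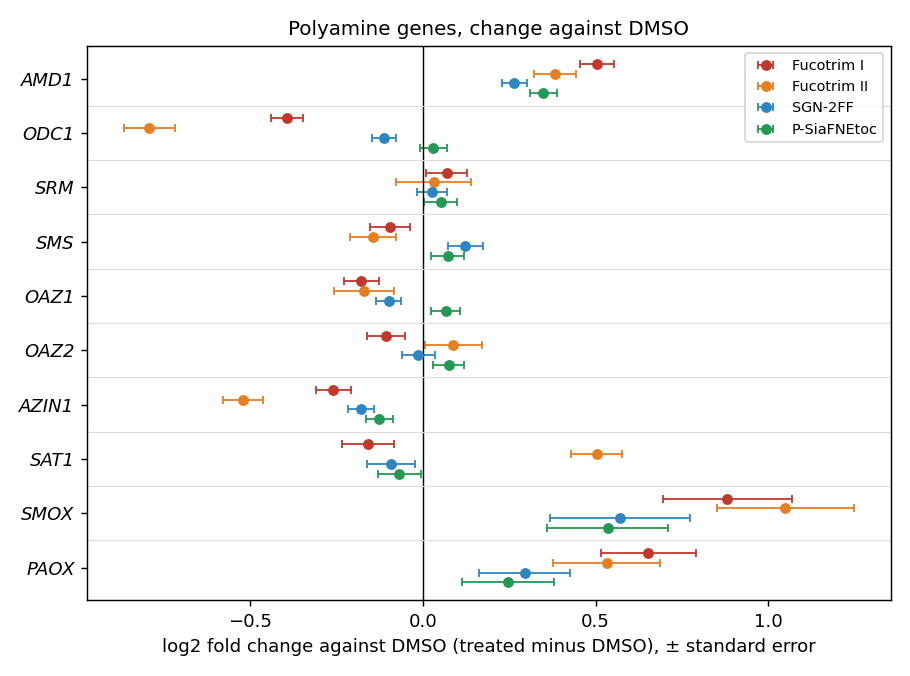
Log2 fold change against DMSO (treated minus DMSO, linear axis) of the 10 polyamine genes for each inhibitor, with the standard error as bars. AMD1, SMOX, PAOX and SRM are to the right of 0 with all 4 inhibitors and AZIN1 to the left; ODC1 runs from -0.79 with Fucotrim II to 0.03 with P-SiaFNEtoc.

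A list of 39 further genes of polyamine and methionine metabolism set these values in the wider pathway, and 37 of them could be tested. SATL1 and ARG1, a paralog of SAT1 and the liver arginase, had mean counts of 0.214 and 3.71 and were not tested. With Fucotrim I 5 of the 37 rose and 10 fell, with Fucotrim II 9 rose and 14 fell, and with SGN-2FF 6 rose and 4 fell. Of all genes tested, 21.6% rose and 22.1% fell with Fucotrim I, 25.6% and 25.7% with Fucotrim II, and 11.5% and 9.08% with SGN-2FF. The median log2 fold change over the list was -0.06, -0.05 and 0.03, beside 0.00, 0.01 and 0.00 over all genes tested. With P-SiaFNEtoc 4 were past the threshold above DMSO and 3 below it, beside 9.02% and 7.33% of all genes, and nothing is read from these counts.

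Some genes of the group listed as ornithine and arginine supply fell. Of the 5 tested, none rose past the threshold, and 2 fell with SGN-2FF, 3 with Fucotrim I and 5 with Fucotrim II. Of all genes tested, 9.08%, 22.1% and 25.7% fell, in that order. The group is mixed, with AGMAT on another route to putrescine and OAT, an aminotransferase that acts on ornithine itself. Its name is only a label, and the count does not measure the supply of substrate to ODC1. Another of the 5, ARG2, was close to the threshold with Fucotrim II (adjusted p = 0.0479). OAT, the mitochondrial ornithine aminotransferase, and SLC7A1, an arginine transporter, are named here after their values were seen. OAT was at 115 to 121 CPM in DMSO and at 88.4 to 103 CPM in all inhibitor libraries, with log2 fold changes of -0.33 (Fucotrim I, adjusted p = 4.47e-05), -0.26 (Fucotrim II, 0.00662), -0.37 (SGN-2FF, 8.45e-07) and -0.22 (P-SiaFNEtoc). SLC7A1 was at 202 to 219 CPM in DMSO, 143 to 148 CPM with Fucotrim I and 169 and 171 CPM with Fucotrim II. SGN-2FF gave 161 to 174 CPM. Its log2 fold changes were -0.52, -0.31 and -0.32 (adjusted p = 7.62e-08, 0.00263 and 3.12e-06), and with P-SiaFNEtoc -0.02 ± 0.04. AGMAT, named for the agmatine route to putrescine, had 25 to 68 counts and was lower with Fucotrim II (-0.65 ± 0.22, adjusted p = 0.0337). That call was lost without any single DMSO library, and the value was -0.72 to -0.54 with a library left out. With SGN-2FF AGMAT was at 0.40 ± 0.18 (adjusted p = 0.11) and with P-SiaFNEtoc at 0.41 ± 0.18, on the log2 scale and above DMSO.

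Among transport genes, ATP13A3, a P5B ATPase linked to polyamine uptake, fell with each fucosylation inhibitor. It was at 180.4, 190.0 and 186 CPM in DMSO, 143, 148 and 136 with Fucotrim I, 129.6 and 107 with Fucotrim II, and 154, 164 and 173 with SGN-2FF. The log2 fold change was -0.37 ± 0.05 (adjusted p = 7.6e-06), -0.65 ± 0.08 (0.000242) and -0.17 ± 0.04 (0.00745), and with P-SiaFNEtoc it was -0.15 ± 0.04. SLC3A2, the heavy chain of several amino acid transporters that has been linked to polyamine export, went different ways. Its 176, 184 and 187 CPM in DMSO became 133, 134 and 139.9 with Fucotrim I (-0.42 ± 0.05, adjusted p = 1.39e-06) and 152, 155 and 139 with SGN-2FF (-0.28 ± 0.04, adjusted p = 3.45e-05). With Fucotrim II it was at 343 and 408 CPM (1.04 ± 0.08, adjusted p = 1.61e-05), and with P-SiaFNEtoc at 182, 180.2 and 185 CPM. SLC22A3, an organic cation transporter, rose with Fucotrim II from 5.88, 5.89 and 6.52 CPM to 10.6 and 9.28 CPM (0.70 ± 0.13, adjusted p = 0.00176); its log2 fold change was 0.27 ± 0.14 with Fucotrim I (adjusted p = 0.127), 0.02 ± 0.14 with SGN-2FF (0.926) and 0.37 ± 0.12 with P-SiaFNEtoc.

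In the methionine cycle, which makes the substrate of AMD1, MAT1A rose with every fucosylation inhibitor. MAT1A, the S-adenosylmethionine synthetase known from liver, was low here at 4.56, 4.06 and 4.14 CPM in DMSO. It was at 8.39, 6.08 and 7.70 CPM with Fucotrim I, 7.398 and 10.2 with Fucotrim II, 5.68, 5.82 and 6.15 with SGN-2FF and 6.64, 7.38 and 8.19 with P-SiaFNEtoc. The log2 fold changes were 0.79 ± 0.15 (adjusted p = 0.000266), 1.04 ± 0.17 (0.000802), 0.48 ± 0.14 (0.0158) and, as a description, 0.79 ± 0.13. Of the 6 genes of this group, 1 rose and 2 fell with each Fucotrim, and 2 rose with SGN-2FF. MAT2A, in the same group and at 226 to 262 CPM in DMSO, made no call with Fucotrim I (0.11 ± 0.06, adjusted p = 0.132) or Fucotrim II (-0.05 ± 0.09, 0.643). It rose with SGN-2FF (0.17, adjusted p = 0.00762). MAT2B fell with Fucotrim I (-0.21 ± 0.06, adjusted p = 0.00955) and Fucotrim II (-0.30 ± 0.08, 0.0143) and not with SGN-2FF (-0.01 ± 0.05, 0.898). The making of S-adenosylmethionine was not measured. Of the 5 genes that salvage methylthioadenosine, the by-product of SRM and SMS, 2 fell with Fucotrim I and 3 with Fucotrim II, and 1 rose with SGN-2FF. The 4 genes listed under hypusination, the modification of EIF5A with spermidine, include EIF5A itself and its paralog EIF5A2. Of these 4, DHPS rose and EIF5A2 fell with Fucotrim II, and none passed with Fucotrim I or SGN-2FF. Of all genes tested, 21.6% rose and 22.1% fell with Fucotrim I, 25.6% and 25.7% with Fucotrim II, and 11.5% and 9.08% with SGN-2FF. Nothing is read from the counts of these small groups.

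The paralogs, other oxidation genes and transcription factors ran from low to high counts. AZIN2, the second antizyme inhibitor, had 10 to 44 counts and rose with Fucotrim I (log2 0.79 ± 0.26, adjusted p = 0.0163; 0.0648 without DMSO replicate 1 and 0.0726 without Fucotrim I replicate 3) and with Fucotrim II (1.08 ± 0.24, adjusted p = 0.0041). AZIN1 fell in the same comparisons. AOC1, a diamine oxidase that acts on putrescine, rose with Fucotrim I (0.71 ± 0.21, adjusted p = 0.00948) from 3.25, 1.95 and 2.19 CPM to 4.16, 4.53 and 3.35, and missed the threshold without DMSO replicate 2 (0.0528) or Fucotrim I replicate 2 (0.0501). ALDH1A3, an aldehyde dehydrogenase, passed with SGN-2FF (0.70 ± 0.22, adjusted p = 0.0251) at 27, 61 and 49 counts; the call was lost without any DMSO library or without SGN-2FF replicate 2 or 3 (adjusted p of 0.0507 to 0.173). Of the 4 transcription factors listed, none passed with Fucotrim I, 2 rose and 1 fell with Fucotrim II and 2 rose with SGN-2FF. Of all genes tested, 43.8% passed with Fucotrim I, 25.6% rose and 25.7% fell with Fucotrim II, and 11.5% rose with SGN-2FF. Nothing is read from counts over 4 genes. MYC, known to drive ODC1 through E-boxes and named after its values were seen, was at 202 to 213 CPM in DMSO. It rose by 0.23 ± 0.06 with Fucotrim II (adjusted p = 0.00963) and 0.32 ± 0.04 with SGN-2FF (adjusted p = 5e-07). MYC differed by 0.10 ± 0.05 with Fucotrim I (0.0861) and 0.20 ± 0.04 with P-SiaFNEtoc. The other calls in this group were MXI1 (0.29 ± 0.08, adjusted p = 0.00947) and MXD1 (-0.31 ± 0.10, adjusted p = 0.0272) with Fucotrim II. With SGN-2FF the other call was MAX (0.17 ± 0.05, adjusted p = 0.032). Whether any of these genes acted on ODC1 here was not tested.

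**Figure D5:**
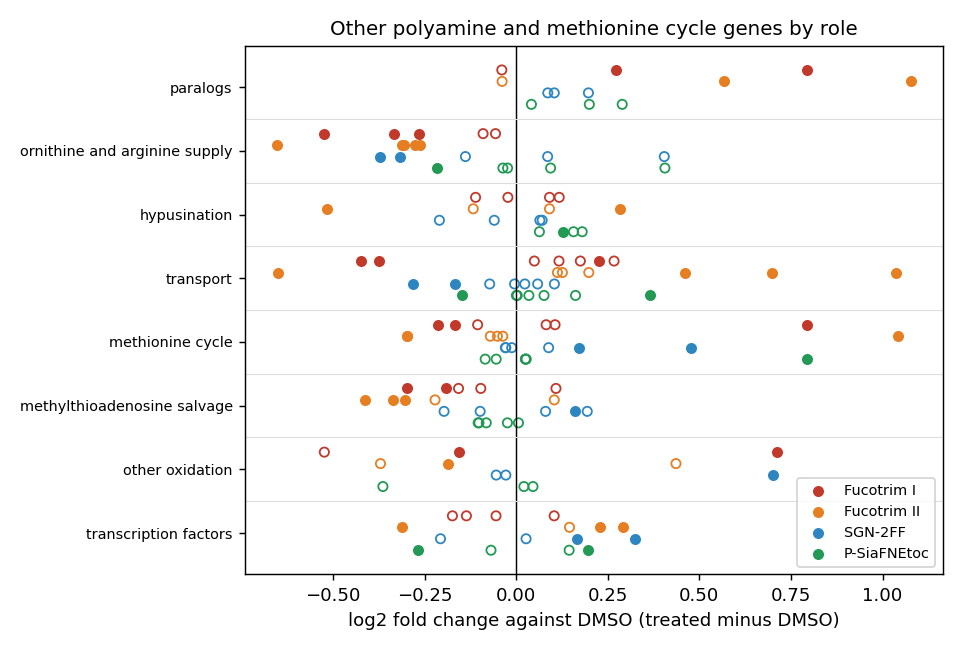
Log2 fold change against DMSO (treated minus DMSO) of the 37 tested genes of the wider pathway by role, with 1 point per gene and inhibitor; filled points had an adjusted p under 0.05 and open points did not, and the P-SiaFNEtoc points are a description. All filled points of the ornithine and arginine supply group lie to the left of 0.

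Across the 14 libraries, the levels of PAOX and SMOX followed AMD1 most closely among the 10 genes (Pearson r of log2 CPM 0.79 and 0.74), and AZIN1 and ODC1 ran against it (-0.61 and -0.55). Among 11826 genes that reached 50 counts on average, the 10 left out, the 5 with the highest r were DDIT4L (0.94), CPAMD8 (0.92), BTG1 (0.92), ABCC2 (0.91) and EHF (0.91). These values describe libraries that share treatments, DMSO controls and depth, and carry no p. BTG1 went from 214 ± 7.59 CPM in DMSO (SD, n = 3) to 444 ± 11.95 with Fucotrim I, 385 ± 22.6 with Fucotrim II, 377 ± 19.7 with SGN-2FF and 359.9 ± 7.81 with P-SiaFNEtoc. DDIT4L went from 89.2 ± 1.22 CPM to 135 ± 2.68, 131 ± 3.01, 110.4 ± 2.87 and 123 ± 8.95 in the same order. EHF went from 114 ± 3.20 CPM to 188 ± 10.2, 172 ± 10.1, 168 ± 11.4 and 147 ± 8.02, and ABCC2 from 27.4 ± 1.59 to 46.9 ± 3.85, 43.9 ± 8.42, 33.0 ± 0.54 and 36.1 ± 4.01. CPAMD8 was low, at 2.51 ± 0.23 CPM in DMSO and between 4.11 ± 0.37 and 5.63 ± 0.54 with the inhibitors. As for AMD1, the highest mean of each of these genes was with Fucotrim I and the lowest in DMSO. The genes were picked by their correlation with AMD1 over these same libraries, so a like order was largely built in. Nothing is read from it.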

How the data were processed

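RNA-seq was read in 14 libraries of CWR22RV1 cells, grouped by the labels. The authors prepared stranded mRNA libraries, used Cutadapt for trimming, HISAT2 for alignment (hg38) and featureCounts for counting, all in Galaxy. The deposited values are raw counts per gene, in 4 tables that repeat the same DMSO libraries. The annotation release and the strand setting are not given in the sources used here.

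The polyamine genes and the lists were chosen with earlier results of these data known. Each inhibitor was fitted with DMSO in edgeR 4.0.16 (R 4.3.3). Low genes were removed by filterByExpr (at least 10 counts, 15 in total), libraries were scaled by TMM, and genes were tested by the robust quasi-likelihood test with Benjamini-Hochberg adjustment over all genes (threshold 0.05). The standard error was taken from the log2 fold change and its F statistic. The fit was tested on simulated data with 200 changed genes, fewer than were called in any comparison here, and with the same spread for every gene. That check does not show how the fit does at the scale and spread of these data. CPM levels used a TMM scaling of all 14 libraries, on 14877 genes. Some of the cell type markers checked are not reported here.

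Values are given for all 10 polyamine genes and for the 5 genes most correlated with AMD1. Of the wider list, they are given for genes past the threshold with a log2 fold change of at least 0.58 in either direction. Listed genes under 10 mean counts are given as not tested. Outside this rule, values are also given for OAT, SLC7A1, MAT2A, MAT2B, OAZ3, MYC, MAX, MXI1 and MXD1. Other listed genes past the threshold with smaller changes, SAT2 among them, are not given with values. Positions, exons and sequences of sites come from GENCODE and hg38, promoters from RefSeq. Alternatives were leaving out each library, the replicate number as a block, DESeq2 1.42.0 (size factors, test), limma-voom (limma 3.58.1), no filter, at least 10 counts in every library, a fit of all 14 libraries, a threshold of 0.01, and mitochondrial genes left out. Of 13 replicate pairs none held identical counts (chi-square per degree of freedom 1.58 to 24.3). Same-numbered libraries did not all deviate together, so the numbers were not taken as pairs. With 2 or 3 libraries per group, the p-values measure the spread between these libraries. Leaving out a Fucotrim II library left only 1, so no p-value is given for those fits.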

Additional observations from a re-analysis of the deposited data

How the results depend on the processing

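With Fucotrim I, 148 of 150 values for the 10 genes kept their direction and their side of the threshold under the alternatives. Of the rest, 1 lost and 1 gained a call. With SGN-2FF 128 of 150 were kept, 14 lost and 6 gained a call, and 2 changed sign. AMD1, whose test is not read, makes up 15 of the values kept in each. With Fucotrim II, where some alternatives left a single treated library, 4 of 150 values changed sign. With P-SiaFNEtoc, from which nothing is read, 1 of 150 did. The sign changes were in genes without a call in the full comparison. SRM with Fucotrim II was -0.0218 with the title numbers as a block and -0.20 to 0.23 with a library left out, and OAZ2 with Fucotrim II -0.0562 to 0.2129. With a library left out SRM was -0.018 to 0.0585 with SGN-2FF and -0.0037 to 0.0875 with P-SiaFNEtoc, and OAZ2 with SGN-2FF -0.0329 to 0.0122.

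AMD1 makes up 1 of each count over the 10 genes below, though its test is not read, and nothing is read from the counts with P-SiaFNEtoc. The number of the 10 genes past the threshold was 5 to 7 with Fucotrim I over all alternatives. With Fucotrim II it was 5 to 6 where no library was left out (6 in both full comparisons). With SGN-2FF it was 4 in the full comparison, 2 to 6 with a library left out, and 2 both in the fit of all 14 libraries and at a threshold of 0.01. With P-SiaFNEtoc it was 3, 1 to 3 with a library left out, and 1, AMD1 itself, in both of those settings. Of the 37 further genes, 23 were called with Fucotrim II, 14 to 27 with a library left out (14 without DMSO replicate 2) and 14 at a threshold of 0.01. With SGN-2FF the count was 10, 5 to 10 with a library left out, 6 by DESeq2, 4 in the fit of all 14 libraries and 6 at 0.01. With P-SiaFNEtoc it was 7, 4 to 6 with a library left out, and 3 in the fit of all 14 libraries and at 0.01. The stricter threshold calls fewer genes by construction, and for the other settings the cause was not tested.

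Whether the replicate numbers pair the samples could not be settled with 2 or 3 libraries per group. Same-numbered libraries correlated in their deviations at 0.024 to 0.125 for Fucotrim I, where libraries with different numbers gave -0.148 to 0.052. The same-numbered values were -0.096 to 0.016 for SGN-2FF and -0.04 to 0.024 for P-SiaFNEtoc. For Fucotrim II they were -0.192 and -0.146 by title or 0.048 and 0.192 by library name. With the number as a block, 6, 5, 3 and 3 of the 10 genes were called with Fucotrim I, Fucotrim II, SGN-2FF and P-SiaFNEtoc, and 21, 9, 11 and 7 of the 37 others. Among the 10 genes, the calls lost to the block by title were PAOX with Fucotrim II (adjusted p = 0.0889) and SMOX with SGN-2FF (0.0501). For Fucotrim II the block by the numbers in the library names, which differ from those in the titles, gave 6 and 22.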

Other observations

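The 10 genes together took 0.22% to 0.226% of the counts in DMSO, 0.194% to 0.221% with Fucotrim I, 0.174% and 0.195% with Fucotrim II, 0.216% to 0.217% with SGN-2FF and 0.237% to 0.238% with P-SiaFNEtoc. The log2 ratio of OAZ1 to OAZ2 was 3.20 ± 0.05 in DMSO (SD, n = 3), 3.13 ± 0.10 with Fucotrim I (n = 3), 2.94 ± 0.02 with Fucotrim II (n = 2), 3.12 ± 0.01 with SGN-2FF (n = 3) and 3.19 ± 0.05 with P-SiaFNEtoc (n = 3). The log2 ratio of ODC1 to AZIN1, its relative, was 0.65 ± 0.05 in DMSO, 0.52 ± 0.03 with Fucotrim I, 0.38 ± 0.15 with Fucotrim II, 0.72 ± 0.05 with SGN-2FF and 0.81 ± 0.09 with P-SiaFNEtoc. OAZ3, the antizyme known from testis, was at 6.80 ± 0.14 CPM in DMSO and did not pass the test with any fucosylation inhibitor.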
